A study of Mus musculus with 34 samples.

Results

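The collagen and laminin genes are the genes that encode the chains of 2 large families of extracellular matrix proteins. They were found by symbol in a table of 21647 genes from cultured mouse ependymal cells, as every name made of Col, digits, a and digits or of Lama, Lamb or Lamc and a digit. The rule matched 44 collagen and 11 laminin genes, and 51 of these 55 (40 collagens and all 11 laminins) had at least 10 counts in 4 or more of 34 libraries. The 4 genes under that minimum were Col13a1, Col24a1, Col25a1 and Col6a6, with at most 15 counts in any library. Ependymal cells carry many motile cilia and form the inner lining of the ventricles of the brain. These were obtained ex vivo from lateral ventricular walls of E18.5 mouse embryos (strain label C57BL/6, titles with the unexplained term OF1), grown to confluency and kept for 4 days without serum to differentiate. Every culture, wild type included, had that same treatment. Homozygous knockouts of Rfx1 (4 libraries), Rfx2 (6) and Rfx3 (6) were set against wild-type siblings of the same line (4, 8 and 6 libraries). The labels do not say how the alleles were made, nor whether replicates came from separate embryos or cultures, so p-values measure only the spread between these samples.

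Collagens are trimers of alpha chains wound into a triple helix. Collagen IV chains assemble into the sheet-like network of basement membranes, while the fibrillar collagens I, II, III, V, XI and XXVII form the fibrils of connective tissue, and other types decorate fibrils or span the plasma membrane. Laminins are cross-shaped trimers of an alpha, a beta and a gamma chain that start basement membrane assembly and bind cells through integrins and dystroglycan. In the ventricle wall, laminins and collagen IV are found around blood vessels and in fractones, small basement membrane deposits that touch ependymal cells and their neighbours. The factors Rfx1, Rfx2 and Rfx3 bind the X-box, a DNA motif found near many genes of cilia.

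Several members lie side by side in the genome (GRCm38, GENCODE M21), all of them protein-coding. The start of Col4a1 (chr8:11198423-11312826, minus strand) lies 21 bases from that of Col4a2 (chr8:11312805-11449287, plus strand), so that the genes overlap at their first bases and are read away from each other. Col4a4 and Col4a3 on chromosome 1 are arranged likewise with starts 72 bases apart, and Col4a6 and Col4a5 on chromosome X with starts 1309 bases apart. RefSeq windows of 250 bases before to 50 bases after a gene start (GRCm38.p6) were at hand for 36 of the 51 genes. Windows of 4 called genes are shown. Col5a3 (chr9:20815068-20815317, minus strand) and Col6a5 (chr9:105960644-105960893, minus strand) fell in both the Rfx2 and the Rfx3 knockouts. Col11a1 (chr3:114030290-114030539, plus strand) rose in both. Col5a1 (chr2:27886175-27886424, plus strand) fell in the Rfx2 knockouts, an effect that differed from that in the Rfx3 line. The 250 bases before each of these 4 starts run 5′ to 3′ on the gene's strand and overlap no annotated exon. Those of Col4a1 and Col4a2, which also fell in both, lie wholly in annotated exons and are not shown. Capitals mark CCAAT and GGGCGG on either strand.
Col5a3: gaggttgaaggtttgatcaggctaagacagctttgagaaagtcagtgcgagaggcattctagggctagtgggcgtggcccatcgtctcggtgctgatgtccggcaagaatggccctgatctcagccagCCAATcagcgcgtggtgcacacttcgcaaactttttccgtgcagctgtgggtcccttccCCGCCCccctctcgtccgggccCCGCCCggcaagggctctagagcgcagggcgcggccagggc
Col6a5: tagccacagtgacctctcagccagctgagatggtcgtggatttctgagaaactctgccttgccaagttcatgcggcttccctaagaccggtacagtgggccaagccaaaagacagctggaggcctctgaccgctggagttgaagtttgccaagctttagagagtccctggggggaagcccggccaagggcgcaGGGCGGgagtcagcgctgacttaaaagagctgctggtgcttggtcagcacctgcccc
Col11a1: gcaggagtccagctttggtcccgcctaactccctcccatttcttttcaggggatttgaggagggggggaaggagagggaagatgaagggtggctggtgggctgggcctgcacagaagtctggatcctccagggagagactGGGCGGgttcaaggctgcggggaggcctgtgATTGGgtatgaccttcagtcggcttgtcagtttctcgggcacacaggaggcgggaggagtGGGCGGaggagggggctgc
Col5a1: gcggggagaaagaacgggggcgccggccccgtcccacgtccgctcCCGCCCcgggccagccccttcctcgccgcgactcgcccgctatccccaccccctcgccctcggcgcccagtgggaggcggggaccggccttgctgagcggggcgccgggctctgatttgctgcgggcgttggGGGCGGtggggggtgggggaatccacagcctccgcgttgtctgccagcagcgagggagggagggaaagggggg

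The X-box consensus, searched on both strands, was in the window of 0 of the 36 genes, against 1.75% of all 27025 genes with a window. Its half-site GTTGCC was in 3 of 36 (8.33%: Col18a1, Col27a1 and Col4a5), against 14.1% of all genes. The forkhead motif GTAAACA was in 1 of 36 (2.78%, Col6a1), against 4.05%. CCAAT was in 13 of 36 (36.1%), against 41.1%, and GGGCGG, the GC box, in 23 of 36 (63.9%), against 38.2%. Called members such as Col26a1, Col9a3, Col22a1, Lama1, Lama3 and Lamc3 had no window and were not searched. An X-box share as low as 1.75% leaves few matches to be found among 36 genes. These shares describe letters in short windows only.

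Libraries held 18.2 M to 53.4 M counts, of which the 51 genes took 0.298% to 0.591% (median 0.449%). The targeted gene was lower in every knockout of its line: the log2 fold change was -1.4 for Rfx1 (not called, adjusted p = 0.0687), -1.13 for Rfx2 and -2.14 for Rfx3. Foxj1, the master regulator of motile cilia, had a median of 1323 CPM (counts scaled to library size) over all libraries, so the defining regulator of the labelled cell type was present. Its level was not uniform: it was at 634 to 819 CPM in Rfx2 knockouts against 807 to 1513 in wild types. In Rfx3 knockout replicates 1 to 6 it was at 1515, 1445, 1377, 746, 755 and 663 CPM, against 1449 to 1732 in wild types. Rfx1 knockouts were at 1268 to 2000 CPM against 1482 to 1929. The summed CPM of 23 multiciliated cell genes was 2032 to 2616 in Rfx2 knockouts and 2491 to 5385 in their wild types, and 1436 to 3893 in Rfx3 knockouts against 4425 to 5454. In bulk RNA, fewer cells of a type and less RNA per cell cannot be told apart. Within the Rfx3 knockouts this sum was 3893, 3755 and 3098 in replicates 1 to 3 and 1788, 1834 and 1436 in replicates 4 to 6. Pdgfra, a gene of mesenchymal and oligodendrocyte precursor cells, was at 64.0 to 101 CPM in replicates 1 to 3 of the Rfx2 knockouts and at 69.7 and 87.8 in replicates 1 and 2 of their wild types, against at most 10.4 in the other libraries of that line. In the Rfx3 line it was at 41 to 134 CPM in knockout replicates 1, 4, 5 and 6 and at 104 in wild-type replicate 6, against at most 5.08 in the others. No label gives a batch or a date.

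In the 18 wild-type libraries, levels were compared per kilobase of annotated exon, as CPM per kb with the SD over libraries. The most abundant laminin chains were the alpha chain Lama5, the beta chain Lamb2 and the gamma chain Lamc1. Lamb2 stood at 115 ± 19 CPM per kb, above 98.9% of all genes in the table, Lama5 at 34.9 ± 6.56 and Lamc1 at 33.0 ± 4.20. Lama5 (25.3 to 46.8) and Lamc1 (26.3 to 42.3) did not differ beyond their spread. The other laminin chains were all lower. Among them, Lama2, the alpha chain of muscle basement membranes, was at 3.01 ± 0.634, the epithelial chain Lama3 was at 1.15 ± 0.403, and the beta chain Lamb1 was at 0.791 ± 0.179. Lama4, Lama1, Lamc3 and Lamb3 were at 0.126 to 0.0527 CPM per kb on average.

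Among collagens, the collagen IV chain Col4a5 had the highest wild-type level, at 73.9 ± 8.69 CPM per kb, and it did not separate from the next, the fibrillar chain Col5a2, at 61.1 ± 12. Col8a2, a short-chain collagen of corneal and vascular membranes, followed at 46.8 ± 8.71. Col4a6 (28.6 ± 5.04) and Col4a1 (25.7 ± 1.96) overlapped, and Col4a2, the usual partner of Col4a1, was at 14.4 ± 1.47, with the highest Col4a2 library (17.6) below the lowest Col4a1 library (20.9). Col4a4 (9.16 ± 3.11) and Col4a3 (7.50 ± 3.26), the chains best known from the kidney glomerulus, were lower and varied more. The other fibrillar chains included Col11a1 (15.2 ± 4.07), Col5a3 (11.3 ± 1.42), Col5a1 (7.93 ± 0.968) and Col1a2 (6.34 ± 1.5), whose neighbours in this order overlapped. Col1a1 (1.03 ± 0.775) and Col3a1 (0.267 ± 0.229), the main chains of fibroblast collagen, were low and had an SD close to their mean. Annotated exons can be longer than the transcript in use, which would lower a gene's level per kb.

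**Figure D1:**
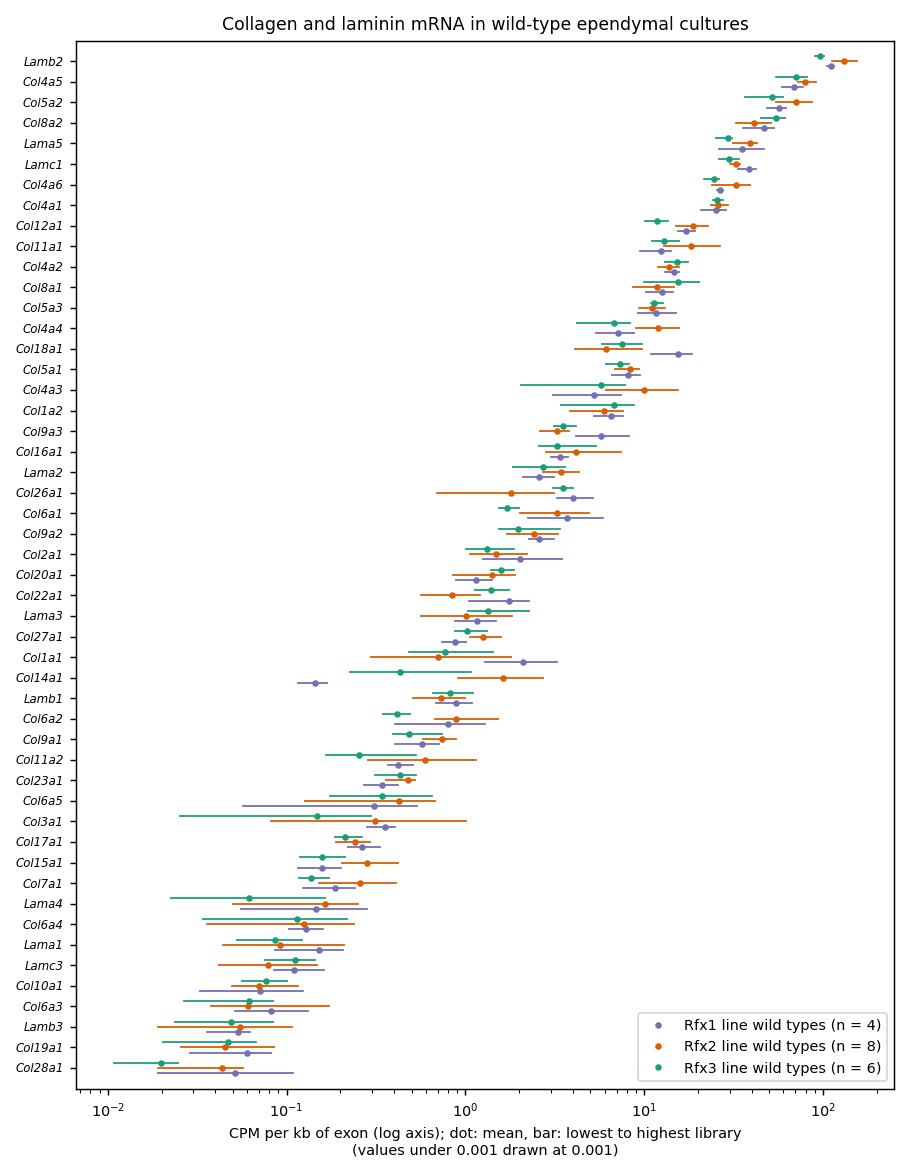
Wild-type level of members, as CPM per kb of exon on a log axis, in order of the mean over 18 libraries; dots are means and bars run from the lowest to the highest library of each line's wild types. Lamb2 and Col4a5 lead, at 115 and 73.9 CPM per kb, and the mean of Col14a1 runs from 0.144 in the Rfx1 line to 1.63 in the Rfx2 line.

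Levels also differed between the wild-type groups of the lines. By an F test in edgeR over these 3 groups, 23 of 50 members differed (46%), against 57.7% of all 14833 genes tested. Col14a1, a collagen that coats fibrils, was at 0.144 ± 0.0228 CPM per kb in the Rfx1 line, 1.63 ± 0.626 in the Rfx2 line and 0.431 ± 0.323 in the Rfx3 line (adjusted p = 1.83e-06). Col18a1, a basement membrane collagen and the source of endostatin, was at 15.4 ± 3.23, 6.08 ± 2.03 and 7.47 ± 1.38 in the same order (adjusted p = 0.000415). Col4a1 and Col5a3 did not pass this test (adjusted p = 0.945 and 0.793). The line and any difference in when it was processed cannot be told apart, so each knockout was compared only with its own wild types.

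Rfx2 knockouts had lower mRNA of the collagen IV pair Col4a1 and Col4a2, of the fibrillar chains Col5a1 and Col5a3, of Col26a1 and of the collagen IX chain Col9a3. In these 6 genes every knockout library was below every wild-type library. In all, 16 of the 49 members tested passed the test (32.7%, against 32.3% of all 14305 genes, so the share was near the background). Of these, 12 were lower (24.5%, against 18.4% of all genes) and 4 higher (8.16%, against 13.9%). Groups that do not overlap were found for 7 members (14.3%), against 10.5% of all genes. The median log2 fold change was 0.07 over the members and 0.01 over all genes.

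Col4a1, which with Col4a2 makes the collagen IV of nearly all basement membranes, was at 101, 114 and 150 CPM in the lowest, median and highest Rfx2 knockout and at 177, 193 and 226 in the wild types. All 6 knockouts were below all 8 wild types. The means were 120 ± 17.4 and 196 ± 15.7 CPM, a log2 fold change of -0.71 ± 0.08 (SE, adjusted p = 5.57e-05). Col4a2 ran from 44.8 through 52.6 to 75.2 CPM in knockouts and from 80.6 through 91.1 to 107 in wild types, again without overlap (-0.71 ± 0.10, adjusted p = 0.000243). No other collagen IV chain was called lower. Col4a6, a chain of epithelial and smooth muscle basement membranes, rose from 262 ± 36.6 to 311 ± 27.6 CPM (0.25 ± 0.09, adjusted p = 0.0477), with overlapping groups. That call was lost when any of 9 single libraries was left out, with adjusted p up to 0.0848 (without knockout replicate 6). Col4a3, Col4a4 and Col4a5 had log2 fold changes of 0.57, 0.29 and 0.17 and were not called.

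The fibrillar chain Col5a1, which helps set the diameter of collagen fibrils, was at 38.5, 42.8 and 54.2 CPM in Rfx2 knockouts (lowest, median, highest) and at 57.5, 73.6 and 78.1 in wild types. The groups did not overlap (-0.67 ± 0.08, adjusted p = 0.0001). Col5a3, the least widespread collagen V chain, was at 37.9, 40.6 and 57.8 against 62.6, 75.5 and 91.0 CPM (-0.74 ± 0.12, adjusted p = 0.000463), with the highest knockouts (replicates 5 and 6, both 57.8) just below the lowest wild type. Col5a2, the most abundant collagen V chain here, was at 727 ± 88.0 and 678 ± 92.9 CPM and was not called (0.10, adjusted p = 0.449). Col11a1, the collagen XI chain of cartilage fibrils, rose: knockouts were at 279, 315 and 421 CPM and wild types at 171, 216 and 333. All 6 knockouts were above the wild-type mean of 234, but wild-type replicate 1, at 333, was above 5 of them (0.48 ± 0.13, adjusted p = 0.0116).

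Col26a1, an emilin-related collagen, had the largest fall among the Rfx2 calls. It was at 1.73, 2.62 and 3.48 CPM in knockouts and at 5.60, 13.0 and 26.5 in wild types. The groups did not overlap, and the wild types themselves differed widely (-2.52 ± 0.30, adjusted p = 6.81e-05). The wild type with the lowest Col26a1 was replicate 5, which had the second lowest sum of multiciliated cell genes (3036), and the highest was replicate 3, with the highest sum (5385). The part of this sum in the result was not tested. Col9a3, a chain of the fibril-associated collagen IX, was at 4.89, 6.34 and 7.89 against 10.1, 12.8 and 14.8 CPM, without overlap (-0.98 ± 0.12, adjusted p = 9.87e-05). Its partner Col9a1 fell less (2.89 ± 0.439 against 3.76 ± 0.505 CPM, -0.38 ± 0.12, adjusted p = 0.0227), and that call was lost without knockout replicate 3, 4 or 5 (adjusted p up to 0.0585). Col9a2 was not called (-0.24, adjusted p = 0.255).

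The collagen VI chains, which form beaded microfibrils around cells, went in both directions in the Rfx2 line. Col6a5 was at 0.551, 1.14 and 1.72 CPM in knockouts and at 1.19, 3.90 and 6.58 in wild types (-1.82 ± 0.39, adjusted p = 0.00264). Wild-type replicate 5, at 1.19, lay within the range of the knockouts. Its genomic neighbour Col6a4 fell as well, from a mean of 1.09 to 0.332 CPM (-1.67 ± 0.48, adjusted p = 0.0165). Col6a2, a chain of the common collagen VI trimer, rose from 7.42 ± 2.31 to 12.9 ± 3.33 CPM (0.79 ± 0.20, adjusted p = 0.00737), while its partners Col6a1 and Col6a3 had 0.40 and 0.94 and were not called. Col22a1, a collagen of tissue junctions, rose from 7.83 ± 2.12 to 13.2 ± 4.35 CPM, with 5 of 6 knockouts above the wild-type mean (0.75 ± 0.21, adjusted p = 0.0150).

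Of the 11 laminin chains, 3 fell in Rfx2 knockouts and 0 rose, while 18.4% of all genes fell and 13.9% rose. With so few chains, these counts are not a result about laminins as a family. Lama3, an alpha chain of epithelial basement membranes, was at 5.05, 6.23 and 7.27 CPM in knockouts and at 6.03, 9.91 and 20.1 in wild types, with overlap (-0.82 ± 0.23, adjusted p = 0.0144). The beta chain Lamb3 was at 0.336 ± 0.155 and 0.367 ± 0.211 CPM and was not called (-0.08, adjusted p = 0.895). Lamc3 fell from 0.485 ± 0.225 to 0.207 ± 0.148 CPM (-1.20 ± 0.40, adjusted p = 0.0326). The abundant chains Lama5, Lamb2 and Lamc1 were not called, with log2 fold changes of -0.24, 0.01 and 0.02.

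Replicate numbers were taken to pair the Rfx2 samples, although only 3 of 6 knockouts were closest to their own number. With the number as a block the calls became 6 higher and 11 lower. Lamc3 was then not called (adjusted p = 0.0549), and Col18a1 (0.44, adjusted p = 0.00843) and Col16a1, a fibril-associated collagen (0.39, adjusted p = 0.0337), were called higher. Replicates 4 and above, which leave out the libraries with Pdgfra at 64.0 CPM or more, gave 8 lower and 5 higher calls. The shares of all genes called with the block and in this subset are not given here, so these counts have no background beside them. The lower calls included Col26a1, Col4a1, Col4a2, Col5a1, Col5a3, Col6a5 and Col9a3. The 5 higher were Col11a1, Col16a1, Col4a3, Col4a4 and Col4a5, so that Col6a2 (adjusted p = 0.326), Col22a1 (0.0577) and Col4a6 (0.0783) were no longer called higher, nor Col6a4 (0.0665), Col9a1 (0.0544), Lama3 (0.117) and Lamc3 (0.295) lower. Lamc3 was also lost without knockout replicate 1, 3, 4 or 6 or wild-type replicate 3 (adjusted p up to 0.0734).

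**Figure D2:**
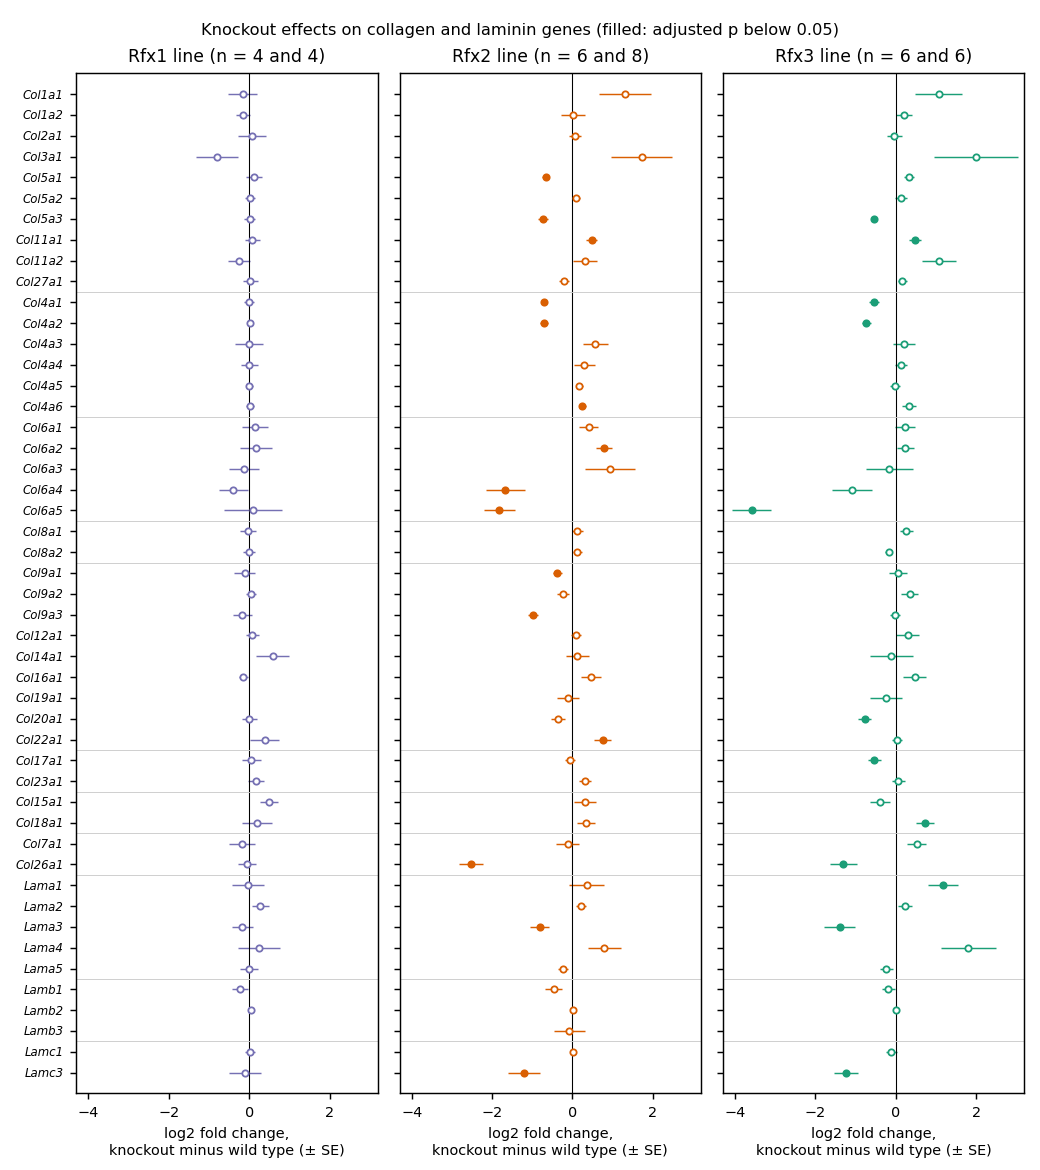
Log2 fold change (knockout minus wild type, ± SE) of members tested in each line, grouped by collagen or laminin class; filled symbols passed the test. In the Rfx2 and Rfx3 panels Col4a1, Col4a2, Col5a3, Col6a5, Col26a1, Lama3 and Lamc3 lie left of 0 and are filled, and no symbol is filled in the Rfx1 panel.

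Rfx3 knockouts had lower Col4a1, Col4a2, Col5a3, Col6a5, Col26a1, Lamc3, Lama3, Col20a1 and Col17a1, and higher Col11a1, Col18a1 and Lama1. Of 48 members tested, 13 passed (27.1%, against 23.5% of all 14340 genes), 10 of them lower (20.8%, against 12.9%) and 3 higher (6.25%, against 10.6%). Groups did not overlap for 7 members (14.6%), close to the 15.5% of all genes. The median log2 fold change was 0.04 over the members and 0.02 over all genes.

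Col6a5 showed the largest fall of these calls. Rfx3 knockouts were at 0.0388, 0.239 and 0.497 CPM (lowest, median, highest) and wild types at 1.65, 2.89 and 6.23, with every knockout (1 to 19 counts) below every wild type (60 to 232 counts; -3.59 ± 0.48, adjusted p = 0.00088). Col4a2 was at 44.2, 61.8 and 78.5 CPM in knockouts and at 88.1, 99.2 and 118 in wild types, without overlap (-0.73 ± 0.12, adjusted p = 0.0021). Col4a1 was at 89.0, 131 and 177 against 183, 189 and 207 CPM, also without overlap but with a wider knockout spread (-0.55 ± 0.13, adjusted p = 0.0124). The other 4 collagen IV chains were not called, with log2 fold changes from -0.02 (Col4a5) to 0.33 (Col4a6). Col5a3 was at 44.9, 52.8 and 62.8 against 74.8, 76.2 and 87.4 CPM (-0.55 ± 0.08, adjusted p = 0.00119). Its groups were apart, whereas Col5a1 was at 78.7 ± 17.3 and 62.6 ± 6.02 CPM and was not called (0.33, adjusted p = 0.0932).

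Col26a1 was at 19.1, 16.9, 17.1, 7.64, 5.29 and 4.48 CPM in Rfx3 knockout replicates 1 to 6 and at 25.6 to 33.2 in wild types (-1.31 ± 0.33, adjusted p = 0.0151). All 6 knockouts were below all wild types, and replicates 4 to 6, the libraries with the lower sums of multiciliated cell genes, had the lowest values. The part of that sum in the result was not tested. Lama3 was at 7.27, 13.0, 2.21, 3.52, 3.88 and 3.38 CPM in the same order and at 11.3 to 24.8 in wild types (-1.40 ± 0.39, adjusted p = 0.022). Only replicate 2 reached the wild-type range, and the call was lost without knockout replicate 4, 5 or 6 (adjusted p up to 0.0512). Lamc3 was at 0.0787, 0.316 and 0.423 CPM against 0.464, 0.714 and 0.888 (-1.24 ± 0.30, adjusted p = 0.0128). For Lamc3 the groups were apart, although every library was below 1 CPM.

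Col20a1 and Col17a1 fell in the Rfx3 line and were not called in the Rfx2 line. Col20a1, a fibril-associated type, was at 3.07, 4.67 and 6.62 CPM in knockouts and at 7.22, 7.99 and 9.81 in wild types (-0.78 ± 0.17, adjusted p = 0.0087). The groups did not overlap, and the difference from the Rfx2 effect did not pass its own test (0.43 ± 0.25, adjusted p = 0.359). Col17a1, a transmembrane collagen of hemidesmosomes, was at 0.891 ± 0.197 and 1.29 ± 0.168 CPM (-0.53 ± 0.17, adjusted p = 0.0387; difference from the Rfx2 effect 0.5 ± 0.21, adjusted p = 0.188), a call lost without any 1 of knockout replicates 4 to 6 or wild-type replicates 1 to 5 (adjusted p up to 0.0881).

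Each of the 3 higher members of the Rfx3 line had groups that overlapped. Col11a1 was at 166, 238 and 296 CPM in knockouts and at 144, 163 and 202 in wild types (0.48 ± 0.15, adjusted p = 0.0382). Col18a1 was at 53.4, 79.1 and 145 against 41.5, 51.0 and 68.8 CPM (0.72 ± 0.23, adjusted p = 0.0387), and Lama1, the alpha chain of embryonic basement membranes, at 0.984, 1.27 and 3.87 against 0.520, 0.817 and 1.21 (1.18 ± 0.37, adjusted p = 0.0369). In each of these 3 genes the highest knockout was replicate 4 or 5. Each call was lost without knockout replicate 4 or 5 and without wild-type replicate 1, 2 or 3 (adjusted p 0.0688 to 0.088). The count of higher members was 0 in each of those fits, 1 without knockout replicate 6 or wild-type replicate 4 or 5, 4 without knockout replicate 1 or wild-type replicate 6, 5 without knockout replicate 2 and 6 without knockout replicate 3. Without wild-type replicate 6, Col11a1 (adjusted p = 0.0728) and Col18a1 (0.0737) were themselves lost, so that count of 4 includes other members.

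The number of calls in this line depended on which libraries were used. With knockout replicates 1 to 3 alone against all wild types, 6 members were lower (Col26a1, Col4a1, Col4a2, Col5a3, Col6a3 and Col6a5) and 0 higher by edgeR, against 6.89% of all genes called. With replicates 1 to 4 of both groups, Col5a3 and Col6a5 were lower and Col9a2 higher, against 1.36% of all genes, and Col4a1, Col4a2 and Col26a1 were not called (adjusted p = 0.118, 0.0563 and 0.0933). With a trend on gene length removed, 6 members were higher and 10 lower, and the share of all genes called in that fit is not given here.

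In the Rfx1 line no member passed the test. Of 47 members tested, 0 passed edgeR's quasi-likelihood test, against 0.00723% of all 13830 genes. At an unadjusted p below 0.05 there were also 0 of 47, against 281 of all 13830 genes. With so small a share over all genes, 0 of 47 is near the background and is not a result about the members. DESeq2 and limma-voom called 0 members as well. Groups did not overlap for 0 members, against 1.49% of all genes. Col4a1 was at 156, 175, 190 and 224 CPM in knockouts 1 to 4 and at 192, 154, 187 and 210 in wild types, and Col4a2 at 84.9, 102, 99.5 and 105 against 98.1, 85.8, 99.7 and 102. The values were interleaved, and the 6 collagen IV chains had log2 fold changes between -0.0011 and 0.025, with an SE of 0.08 for Col4a2 and 0.35 for Col4a3. Col5a3 was at 79.4 ± 3.2 and 78.8 ± 16.5 CPM. The smallest p before adjustment was that of Col15a1, a basement membrane zone collagen, at 1.37 ± 0.141 against 0.991 ± 0.219 CPM (0.49 ± 0.23). Col3a1 (-0.80 ± 0.52) and Col14a1 (0.59 ± 0.41) had the largest log2 fold changes beside those SE.

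The Rfx2 and Rfx3 lines shared most of their lower members. Among the 48 members tested in both, 8 were lower in both, among them Col26a1, Col4a1, Col4a2, Col5a3, Col6a5, Lama3 and Lamc3. These are 66.7% of the lower members of the Rfx2 line and 80% of those of the Rfx3 line. Over all genes, the lower genes shared were 46.3% of the Rfx2 list and 66.8% of the Rfx3 list. The wild types of the 2 lines were separate samples. Col11a1 was the single member higher in both (25% and 33.3% of the lists, against 23.2% and 30.4% over all genes).

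**Figure D3:**
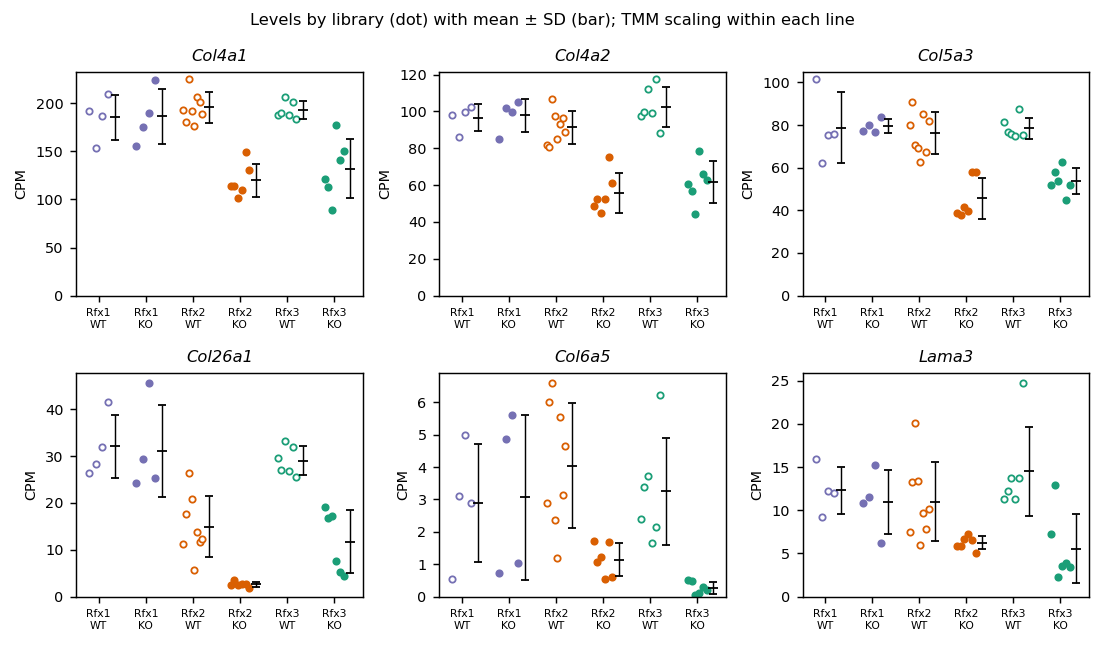
CPM in each library of Col4a1, Col4a2, Col5a3, Col26a1, Col6a5 and Lama3 by group, open for wild types and filled for knockouts, with mean ± SD bars. Rfx2 and Rfx3 knockouts lie below their wild types (Col4a1 at 101 to 150 and 89.0 to 177 CPM, against at least 177 and 183), with overlap for Col6a5 in the Rfx2 line and for Lama3 in both lines, while the Rfx1 groups overlap in all 6 genes.

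Knockout effects were compared between lines as contrasts in a fit of all 34 libraries. Between the Rfx2 and Rfx3 lines the effect differed for 2 of 50 members (3.84% of all 14833 genes were called, 2.1% with a higher and 1.74% with a lower effect in the Rfx2 line). Both members had the lower effect in the Rfx2 line. Col5a1 fell in the Rfx2 line and not in the Rfx3 line, a difference of -0.98 ± 0.18 on the log2 scale (adjusted p = 0.00129). Without Rfx2 replicates 1 to 3 its adjusted p was 0.054. Col9a3 likewise fell in the Rfx2 line, while Rfx3 knockouts and wild types were at 13.5 ± 2.28 and 13.6 ± 1.59 CPM (difference -0.95 ± 0.21, adjusted p = 0.00663). For the shared falls the difference was at most as large as its SE in Col4a2 (0.04 ± 0.15) and Col4a1 (-0.15 ± 0.15), while that of Col26a1 (-1.20 ± 0.43, adjusted p = 0.113) and Col6a5 (1.78 ± 0.73, adjusted p = 0.181) did not pass.

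**Figure D4:**
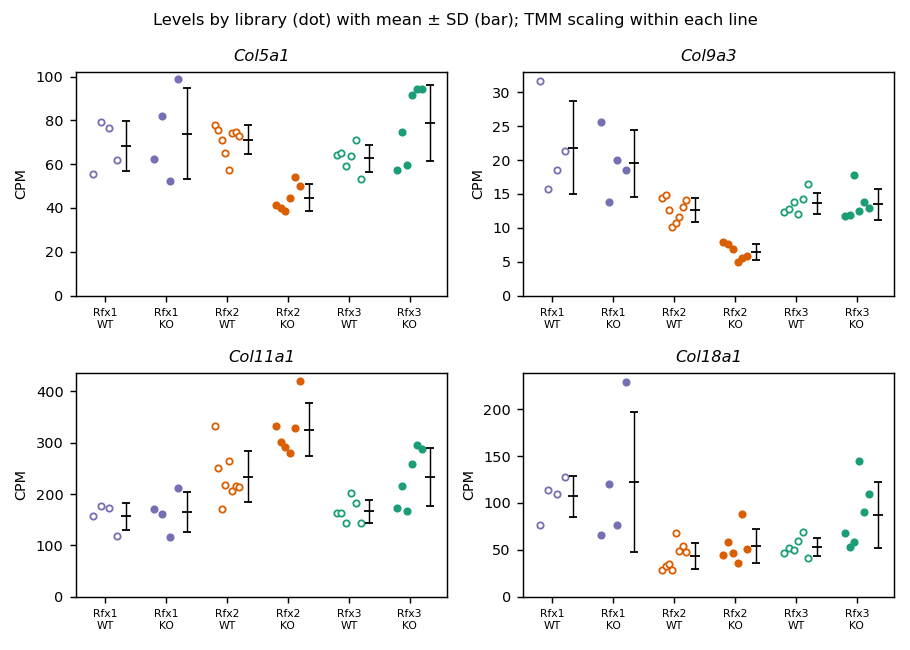
CPM in each library of Col5a1, Col9a3, Col11a1 and Col18a1 by group, open for wild types and filled for knockouts, with mean ± SD bars. Col5a1 and Col9a3 are lower in Rfx2 knockouts (38.5 to 54.2 and 4.89 to 7.89 CPM) but overlap the wild types in the Rfx3 line, whose knockouts reach 296 CPM for Col11a1 and 145 for Col18a1.

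Against the Rfx1 line, 4 of 50 members had an effect that was lower in the Rfx2 line (0.829% of all genes were called, 0.593% in this direction and 0.236% in the other). The Rfx1 minus Rfx2 differences were 2.45 ± 0.48 for Col26a1 (adjusted p = 0.00785), 0.70 ± 0.17 for Col4a1 (0.043), 0.71 ± 0.17 for Col4a2 (0.0325) and 0.73 ± 0.17 for Col5a3 (0.0336). Against the Rfx3 line there were 3 in the same direction (7.75% of all genes, 4.79% in this direction and 2.95% in the other): Col6a5 (3.67 ± 0.83, adjusted p = 0.00879), Col4a2 (0.75 ± 0.17, 0.00911) and Col5a3 (0.55 ± 0.17, 0.0482). These contrasts share the Rfx1 samples. With the replicate number as a block in all 3 lines, the calls against the Rfx2 line were 2 in all. That fit also pairs the Rfx1 and Rfx3 samples by number, although their numbers were not taken to pair them. Col26a1 passed (adjusted p = 0.0416), and Col4a1 (0.14), Col4a2 (0.129) and Col5a3 (0.11) did not. They ranged from 1 to 6 over the fits without a single library, and over all 40 alternatives Col4a1 was lost in 23, Col4a2 in 9 and Col5a3 in 7 (adjusted p up to 0.14, 0.129 and 0.11). Each of these 3 was lost without Rfx1 knockout replicate 3 or wild-type replicate 2 or 3, and Col4a1 also without single libraries of all 3 lines. The Col5a3 call against the Rfx3 line was lost in 28 of its 40 alternatives.

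Genes that are neighbours in the genome did not always share their values. Col4a1 and Col4a2, read from nearly the same point, had log2 fold changes of -0.71 and -0.71 in the Rfx2 line and of -0.55 and -0.73 in the Rfx3 line. The pairs Col4a4 and Col4a3 (0.29 and 0.57, then 0.13 and 0.21) and Col4a6 and Col4a5 (0.25 and 0.17, then 0.33 and -0.02) were called lower in neither line. Col6a5 and Col6a4, on the same strand of chromosome 9, had -1.82 and -1.67 in the Rfx2 line and -3.59 and -1.09 in the Rfx3 line, where Col6a4 was not called (adjusted p = 0.127).

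The fibroblast collagens Col1a1 and Col3a1 had large mean differences and were not called. In Rfx2 knockout replicates 1 to 6, Col3a1 was at 2.52, 17.5, 11.4, 0.792, 27.3 and 1.22 CPM, and wild types ran from 0.806 through 1.89 to 9.94 (1.72 ± 0.76, adjusted p = 0.0972). Replicates 2, 3 and 5 were above all wild types, and the others lay within or just below the wild-type range. In Rfx3 knockouts it was at 0.131, 0.172, 1.16, 17.3, 15.3 and 0.747 CPM, against 0.251 to 2.96 in wild types (1.99 ± 1.05, adjusted p = 0.188). Col1a1 was high in the same 5 knockouts, at 19.6, 13.8 and 30.3 CPM in Rfx2 replicates 2, 3 and 5 and at 23.8 and 23.3 in Rfx3 replicates 4 and 5. Its partner Col1a2 was at 75.2 ± 41.4 and 74.1 ± 19.0 CPM in the Rfx2 line (0.02, adjusted p = 0.971).

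Dcn, the fibroblast proteoglycan decorin, was at 14.6, 5.99 and 26.1 CPM in Rfx2 knockout replicates 2, 3 and 5, at 9.84 and 7.73 in Rfx3 knockout replicates 4 and 5 and at 3.77 in Rfx2 wild-type replicate 7, which had the highest wild-type Col3a1. In the other 28 libraries it was at most 1.07. Pdgfra did not follow that order: Rfx2 knockout replicate 5 had 5.04 CPM and replicate 1 had 64.0, with Col3a1 at 27.3 and 2.52. Of the 25 fibroblast and meningeal markers, 7 had a median under 0.1 CPM over all libraries, among them Lum, Twist2 and Dpt. Lum, though below 1 CPM throughout, was highest in libraries with high Dcn. It was at 0.216 and 0.584 CPM in Rfx2 knockout replicates 2 and 5, 0.495 in Rfx2 wild-type replicate 7, and 0.500 and 0.325 in Rfx3 knockout replicates 4 and 5. Rfx2 knockout replicate 3 had 0.0300, and no other library was above 0.137. The summed markers of this list were 188 to 289 CPM in Rfx2 knockouts against 127 to 255 in wild types, and 145 to 346 in Rfx3 knockouts against 112 to 214. Of those tested, 4 of 14 rose (28.6%) and 1 fell (7.14%) in the Rfx2 line. In the Rfx3 line 6 of 15 rose (40%) and 1 fell (6.67%). Over all genes, 13.9% rose and 18.4% fell in the Rfx2 line, and 10.6% rose and 12.9% fell in the Rfx3 line. The part of these markers in the collagen values was not tested. Of 18 endothelial markers, 5 had a median under 0.1 CPM (Cdh5, Cldn5, Tie1, Emcn and Sox17). Cdh5 was nonetheless at 1.39, 0.899 and 2.77 CPM in Rfx2 knockout replicates 2, 3 and 5. It was at 0.763 and 0.650 in Rfx3 knockout replicates 4 and 5 and at 0.440 in Rfx2 wild-type replicate 7, against at most 0.231 elsewhere. Slco1a4, at a median of 474 CPM, made up most of the list's sum. That sum was 607 to 906 CPM in Rfx2 knockouts against 379 to 679 in wild types, and 489 to 772 in Rfx3 knockouts against 379 to 536. In the Rfx2 line 0 of 10 tested endothelial markers rose and 3 fell (30%), and in the Rfx3 line 1 of 10 rose (10%) and 1 fell (10%). Of 16 pericyte and smooth muscle markers, 4 had a median under 0.1 CPM (Kcnj8, Abcc9, Higd1b and Vtn), while Acta2 had a median of 2356. Their sum was 3274 to 4107 CPM in Rfx2 knockouts against 3439 to 4983 in wild types, and 3434 to 5809 in Rfx3 knockouts against 2987 to 4692. Of 11 tested, 2 rose in the Rfx2 line (18.2%) and 3 in the Rfx3 line (27.3%), and 0 fell. The part of these lists in the collagen values was not tested either.

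**Figure D5:**
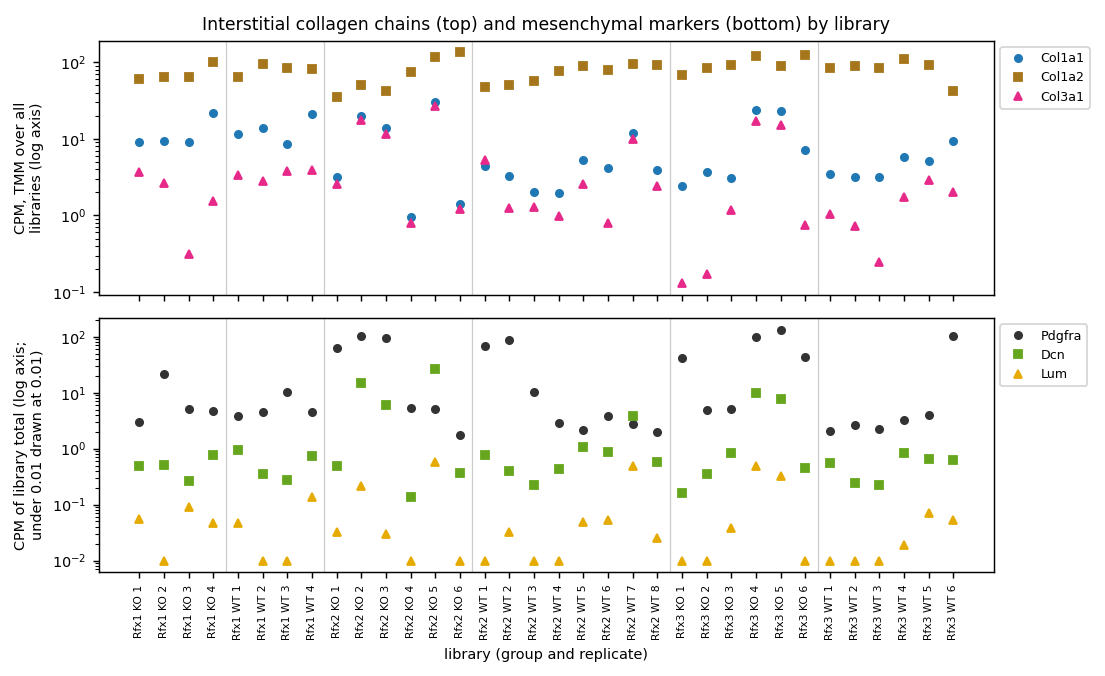
Col1a1, Col1a2 and Col3a1 (top) and the mesenchymal markers Pdgfra, Dcn and Lum (bottom) in each of the 34 libraries, on log axes; the top panel is scaled over all libraries and the bottom panel is CPM of the library total. Col3a1 and Dcn are both highest in Rfx2 knockout replicates 2, 3 and 5 and Rfx3 knockout replicates 4 and 5, where Dcn is at 5.99 to 26.1 CPM, while Pdgfra is also high in libraries with low Dcn.

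Genes that make, bind or cut collagen and laminin moved in both directions, and none was called in the Rfx1 line. Over all genes, 13.9% rose and 18.4% fell in the Rfx2 line and 10.6% rose and 12.9% fell in the Rfx3 line. Of 37 tested genes of collagen modification and secretion, 6 rose (16.2%) and 5 fell (13.5%) in the Rfx2 line, shares near that background. In the Rfx3 line 7 rose (18.9%) and 2 fell (5.41%). Sec24d, a coat protein of the vesicles that carry procollagen, fell in both: from 134 ± 11.5 to 100.5 ± 6.41 CPM in the Rfx2 line (-0.41, adjusted p = 0.000205) and from 138 ± 10.1 to 98.3 ± 12.6 in the Rfx3 line (-0.49, adjusted p = 0.00372). Lysyl oxidases, which cross-link collagen, differed by member, with Loxl4 (-0.78) and Loxl3 (-0.28) lower in the Rfx2 line and Loxl1 (1.02, adjusted p = 0.00727) higher in the Rfx3 line. Adamts3, a procollagen N-propeptidase, rose from 6.65 ± 1.99 to 20.3 ± 7.38 CPM in the Rfx2 line (1.61, adjusted p = 0.00023), without overlap. Fkbp10, a procollagen chaperone, rose in the Rfx3 line (0.73, adjusted p = 0.00584). With Rfx3 knockout replicates 1 to 3 only, Loxl1 was at 0.51 (adjusted p = 0.0559) and Fkbp10 at 0.69 (0.0618), and with replicates 1 to 4 of both groups Sec24d was lost too (0.0828).

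Of 26 other basement membrane genes, 4 rose (15.4%) and 3 fell (11.5%) in the Rfx2 line and 6 rose (23.1%) and 2 fell (7.69%) in the Rfx3 line. Frem1, a protein of epithelial basement membranes, fell from 37.5 ± 7.39 to 19.4 ± 1.75 CPM in Rfx2 knockouts (-0.95, adjusted p = 0.000133), and its relative Frem2 from 113 ± 10.2 to 69.7 ± 22.1 in Rfx3 knockouts (-0.70, adjusted p = 0.0166). Of 32 other fibrillar matrix and proteoglycan genes, 6 rose (18.8%) and 2 fell (6.25%) in the Rfx2 line, and 10 rose (31.2%) and 2 fell (6.25%) in the Rfx3 line. The median log2 fold change of this list was 0.22 and 0.52, against 0.01 and 0.02 over all genes. Ecm2, a leucine-rich matrix protein, rose in the Rfx2 line (0.72, adjusted p = 6.01e-06) and fell in the Rfx3 line (-0.64, adjusted p = 0.000374). Postn, the matrix protein periostin, fell in Rfx2 knockouts (-1.56, adjusted p = 0.00167), and Fmod, the proteoglycan fibromodulin, rose in Rfx3 knockouts (0.77, adjusted p = 0.00432). Frem2 and Fmod were not called with Rfx3 knockout replicates 1 to 3 only (adjusted p = 0.134 and 0.0547) or with replicates 1 to 4 of both groups (0.205 and 0.0987). The fibroblast marker sums given above were also higher on average in these knockouts, and their part in this list was not tested.

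Of 33 receptors and linkers of collagen and laminin, 10 rose (30.3%) and 6 fell (18.2%) in the Rfx2 line and 7 rose (21.2%) and 3 fell (9.09%) in the Rfx3 line. Adgrg1, an adhesion receptor that binds collagen III, rose in both, from 124 ± 16.3 to 246 ± 32.9 CPM (0.99, adjusted p = 1.93e-05) and from 113 ± 15.9 to 166 ± 14.2 (0.56, adjusted p = 0.00257). Itgb4, an integrin subunit of hemidesmosomes that binds laminin, fell from 8.92 ± 2.49 to 4.46 ± 0.444 CPM in Rfx2 knockouts (-0.999, adjusted p = 0.000686). Of 23 matrix proteases and inhibitors, 4 rose (17.4%) and 3 fell (13.0%) in the Rfx2 line and 4 rose (17.4%) and 1 fell (4.35%) in the Rfx3 line. Adamts15 rose in the Rfx2 line (0.67, adjusted p = 6.15e-05), and Timp1, an inhibitor of matrix metalloproteases, in the Rfx3 line (1.88, adjusted p = 0.0165). The Timp1 value dropped to 0.58 (adjusted p = 0.283) with Rfx3 knockout replicates 1 to 3 only, and its call was lost with limma-voom (0.0556). Of 27 genes of signals that act on matrix, 4 rose (14.8%) and 2 fell (7.41%) in the Rfx2 line and 6 rose (22.2%) and 3 fell (11.1%) in the Rfx3 line, among them Ccn3 (1.98, adjusted p = 0.00939) and the TGF-beta co-receptor Tgfbr3 (-0.94, adjusted p = 0.00187) in the Rfx3 line. With Rfx3 knockout replicates 1 to 3 only, Ccn3 was at 0.69 and not called (adjusted p = 0.12). With replicates 1 to 4 of both groups, neither Timp1 (0.209), Ccn3 (0.176), Tgfbr3 (0.0732) nor Adgrg1 (0.0694) was called in this line. In the Rfx2 line, with the replicate number as a block, the protease Mmp15 (adjusted p = 0.053) and the signal gene Smad2 (0.0569), both among the genes that rose, were not called.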

How the data were processed

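RNA-seq libraries (TruSeq) from 34 cultures were analysed. Per the submitters' processing notes, which name CASAVA 1.8.2, STAR 2.4, featureCounts 1.4.6 and GRCm38 without their order, the authors deposited 1 table of raw read counts per gene for all libraries. Whether reads were counted by strand is not given in the sources used here, so genes that overlap on opposite strands cannot be told apart. Counts were used as deposited, and 21583 of 21647 rows matched a GENCODE M21 gene. Depth ranged from 18.2 M to 53.4 M counts per library, which limits the precision of members below 1 CPM. No 2 replicates agreed within sampling noise (lowest chi-square per degree of freedom 4.11 over 85 pairs).

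Each knockout was tested against its own wild types with edgeR 4.0.16 (R 4.3.3): TMM scaling, filterByExpr (minimum count 10, minimum total 15), quasi-likelihood F test and Benjamini-Hochberg adjustment over all genes tested, with a call at adjusted p below 0.05. Adjusted p-values in the text come from this test unless another is named. On simulated counts of independent libraries, the code recovered planted changes. That check held no paired samples and no subsets of unlike replicates, so it does not measure how many real changes were found here. Col10a1 and Col28a1 were tested in no line, Col19a1 not in the Rfx1 line and Lamb3 not in the Rfx1 and Rfx3 lines, because of low counts. Differences between lines were contrasts in 1 fit of all 34 libraries. CPM values use TMM within a line, CPM per kb uses TMM over all libraries and the union of annotated exons, and marker CPM is of the library total. Errors are SD for levels and SE for log2 fold changes.

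Alternatives were DESeq2 1.42.0, limma-voom 3.58.1, other scaling and filters, a length trend, subsets of replicates, each library left out and the replicate number as a block. In the Rfx2 line the deviations of knockout and wild type with the same number correlated in all 6 pairs (r 0.139 to 0.577). Only 3 of 6 knockouts were closest to their own number, so the pairing is uncertain. The numbers were taken to pair these samples in the fit with a block, and the main test used no block. Members named were at most 12 called in each direction and line by smallest p (3 where fewer were called), those called between lines or in both the Rfx2 and Rfx3 lines, the 5 with the highest wild-type level per kb and the laminins, and each other matrix list gave genes from its 4 smallest p among calls in a line. Other collagens are named as chains of the same type, neighbours or connective tissue collagens and were chosen after their values were seen, as were Foxj1, Pdgfra, Dcn, Lum and Cdh5. The members and the lists were chosen with earlier results of these data known. Some genes that these rules name are counted but not reported here.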

Additional observations from a re-analysis of the deposited data

Results flagged for a closer look

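In 3 of 64 groups of 4 to 8 samples checked, 1 library lay far from the others by Dixon's criterion at the 95% level, and chance gives about 1 in 20. Col6a2 was at 12.5 CPM in Rfx2 wild-type replicate 5, against 5.78 to 8.94 in the other wild types. Col11a1 was at 421 CPM in Rfx2 knockout replicate 6, against 279 to 332 in the other knockouts. Lama3 was at 24.8 CPM in Rfx3 wild-type replicate 6, against 11.3 to 13.7 in the other wild types.

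The knockout effect differed between lines, by a contrast in edgeR's fit of all libraries, in 9 cases. Rfx1 minus Rfx2 gave 2.45 for Col26a1, 0.70 for Col4a1, 0.71 for Col4a2 and 0.73 for Col5a3 on the log2 scale. Rfx1 minus Rfx3 gave 3.67 for Col6a5, 0.75 for Col4a2 and 0.55 for Col5a3. Rfx2 minus Rfx3 gave -0.98 for Col5a1 and -0.95 for Col9a3.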

How the results depend on the processing

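Among 89 single-gene results, only 39 stayed on the same side of the threshold in every alternative. Pooled over results, 1889 alternative values kept direction and side of the threshold, 255 kept only the direction and 0 reversed. Most alternatives leave out a single library and so reuse nearly the same data, and these pooled counts are not independent checks. The Rfx2 counts (4 higher, 12 lower) ranged over 3 to 4 and 10 to 12 with a library left out. The 3 higher members of the Rfx3 line became 5 with DESeq2, 1 with limma-voom, 6 with the length trend removed, 7 with all groups in 1 fit, 1 with replicates 1 to 4 only and 0 with knockout replicates 1 to 3 only, an alternative chosen after seeing the data. They ranged from 0 to 6 with a library left out. The 10 lower members became 2 with replicates 1 to 4 and 6 with knockout replicates 1 to 3, and ranged from 8 to 10. With the replicate number as a block, the Rfx3 line had 1 higher and 8 lower members, and the 4 differences between the Rfx1 and Rfx2 lines became 2, as they did with the block and the length trend removed. In the Rfx1 and Rfx3 lines the numbers were not taken to pair the samples (r -0.0651 to 0.330, with 2 of 4 knockouts closest to their own number, and -0.331 to 0.196, with 1 of 6). The fits with a block pair them by number all the same. In the Rfx2 line, among the results named in the report, the block changed only the calls given there. With a library left out, the differences ranged from 1 to 6 (Rfx1 and Rfx2), 2 to 5 (Rfx1 and Rfx3) and 2 to 3 (Rfx2 and Rfx3), and the latter was 1 with Rfx2 replicates 4 and above. Rfx1 calls stayed at 0 members in each alternative run, and 21 to 27 members differed among wild types. Except where stated, the share of all genes called in each alternative is not given here, and the causes of these changes were not tested.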
